A study of Mus musculus with 18 samples.

Results

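Some stretches of heterochromatin in the mouse liver carried trimethylated lysine 9 of histone H3 (H3K9me3) in young and in old animals. Yet they lay in no lamin B1 domain called at either age. They were collected as windows of 10 kb on chromosomes 1 to 19 that lie inside an H3K9me3 region called in young livers and inside one called in old livers, and inside no lamin B1 domain of either age. This rule chose 8404 of 246285 windows (3.41%), or 84.0 Mb. A window outside a list had no region called there, which does not show that lamin B1 or the mark was absent. Lamin B1 and H3K9me3 were profiled by chromatin immunoprecipitation and sequencing (ChIP-Seq) in livers of male C57BL/6 mice aged 3 months (young) and 21 months (old), with 2 replicates per antibody and age. The factor Foxa2 was profiled at 12 weeks in Zmpste24 mutant livers and in those of wild-type littermates, each genotype in 3 replicates. The mutants are deficient in Zmpste24, an enzyme needed for the last cleavages that turn the lamin A precursor into lamin A. Replicates were merged before regions were called, and each list holds positions without a signal, so no test between ages or genotypes can be made. Liver holds several cell types besides hepatocytes, and a region list from whole liver does not tell them apart.

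H3K9me3 is the mark of constitutive heterochromatin. It is written by SETDB1 and the SUV39H enzymes and read by HP1 proteins. Part of this chromatin lies against the nuclear lamina, the meshwork of lamins under the inner nuclear membrane, and part lies inside the nucleus or around nucleoli. Genes of the C2H2 zinc finger family, many of which encode repressors of transposable elements, stand in tandem clusters that are known to be coated with H3K9me3 in many cell types. Foxa2 is a forkhead factor of the liver that binds its sites also in closed chromatin.

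Membership in the lists is what the rule used, and it is given here as a description. The deposited H3K9me3 lists hold 2784 regions for young and 2496 for old livers. The study gives larger numbers of regions, and the cause is not known, so every count and share of members refers to the deposited lists. The young H3K9me3 list covered 23.4% of the windows of chromosomes 1 to 19 and the old list 25%, with 9.89% in both. The old lamin B1 list covered 37.8% of the windows and the young list 18.9%. Of 34639 windows marked in young livers and free of lamin B1 at both ages, 8404 were also marked in old livers, or 24.3% (95% Wilson interval 23.8 to 24.7). Of the 17215 such windows marked in old livers, 48.8% (48.1 to 49.6) were also marked in young ones. Intervals for shares are Wilson intervals and those for densities exact Poisson intervals, all at 95%. They cover counting error only, and neighbouring windows of 1 called region are not independent.

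To show what linker-rich members look like, a stretch of coding sequence is printed from the zinc finger gene with most fingers in the longest run. Gm14124 occupies chr2:150257517-150270300, plus strand (GRCm38, GENCODE vM21), and its coding transcript with most C2H2 fingers holds 19. The printed bases are coding exon, chr2:150268271-150268522, with the codons of the conserved linker between neighbouring fingers in capitals.

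Gm14124: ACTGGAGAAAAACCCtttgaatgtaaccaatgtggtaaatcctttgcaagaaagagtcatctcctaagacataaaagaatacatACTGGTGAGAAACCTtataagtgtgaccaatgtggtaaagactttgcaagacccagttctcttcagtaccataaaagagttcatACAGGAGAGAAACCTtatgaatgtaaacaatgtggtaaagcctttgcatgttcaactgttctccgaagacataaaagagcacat

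The linker stands 3 times in these 252 bases. It occurs 16 times in the whole exon of 1954 bases, and 11 of the 15 spacings between neighbouring copies were 84 bases, the length of 1 finger with its linker. Any codon spelling of this linker, on either strand, was counted as a linker match in every window.

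The 8404 windows joined to 789 unbroken runs. The median run was 80 kb long (quartiles 40 and 130 kb), 58 runs were single windows and 95 runs of at least 200 kb held 36.2% of all members. Member windows made up between 0.293% of chromosome 19, where there were 18, and 6.04% of chromosome 10. Chromosome 1 held the largest number, 1045.

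**Figure D1:**
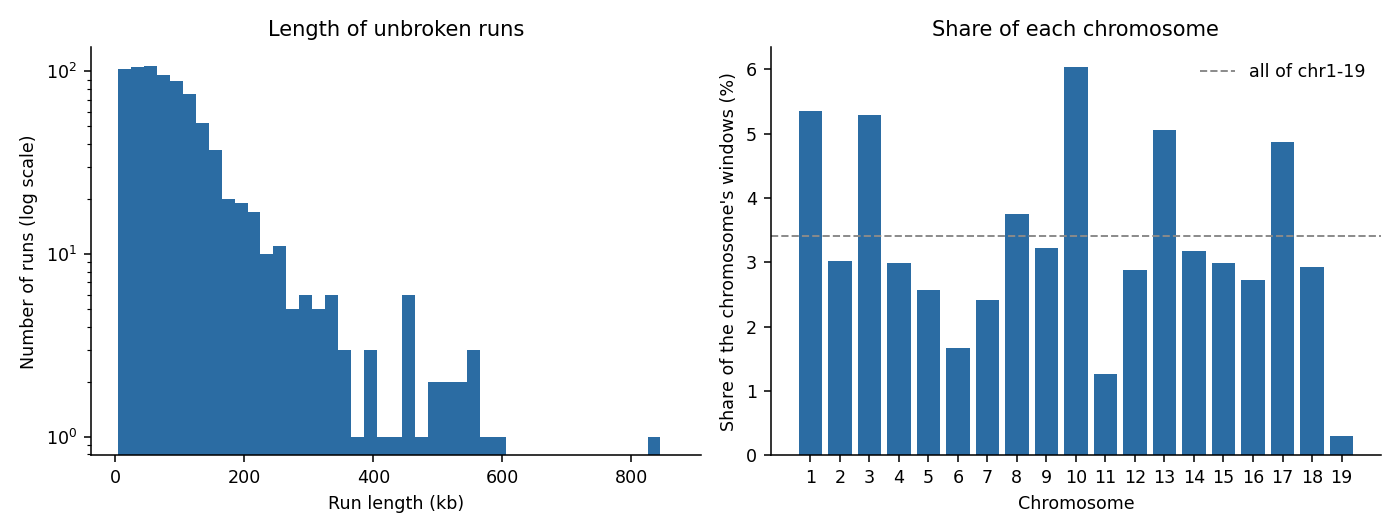
The left panel counts the 789 runs by length in kb on a log axis, in steps of 20 kb. The right panel gives the share of each chromosome's 10 kb windows in percent, with the share over chromosomes 1 to 19 (3.41%) as a dashed line, from 0.293% on chromosome 19 to 6.04% on chromosome 10.

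The runs seldom matched called regions of equal extent at both ages. In 50 runs the young and the old H3K9me3 region had the same start and end. The region holding a run had a median length of 220.0 kb in the young list and 160.0 kb in the old list, and it was longer in the young list for 464 runs and longer in the old list for 264. Of the 1578 edges of runs, 600 (38%) bordered a window marked in young livers alone, 310 (19.6%) a window marked in old livers alone and 286 (18.1%) a window in none of the lists. The other 382 edges (24.2%) bordered a lamin B1 window, of which 125 were bound in young livers alone, 232 in old livers alone and 25 at both ages. A window beside a run fails the rule by definition, so these counts only describe how the lists meet at the edges. Over all windows, 10.65% were marked in young livers alone and 3.58% in old livers alone, outside lamin B1, and 39.1% were in none of the lists.

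The longest run held a cluster of zinc finger genes in its right part. It spanned 840 kb of chromosome 2 (chr2:149670001-150510000), inside a young H3K9me3 region of 970 kb and an old one of 1030 kb. It held start sites of 12 protein-coding genes, among them Zfp120, Zfp937, Zfp442, Zfp345, Gm14139, Gm14124, Gm10770 and Gm21994, which encode C2H2 zinc finger proteins, and 99 linker matches. Syndig1, which encodes a transmembrane protein of synapses, stood in the same run, together with the less characterised C530025M09Rik, 3300002I08Rik and Gm10130. The first zinc finger start site stood in the window 460 kb from the left end of the run, and Syndig1 and C530025M09Rik began to the left of it. No Foxa2 site of either genotype lay in it. A lamin B1 domain of young livers began at its right edge.

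**Figure D2:**
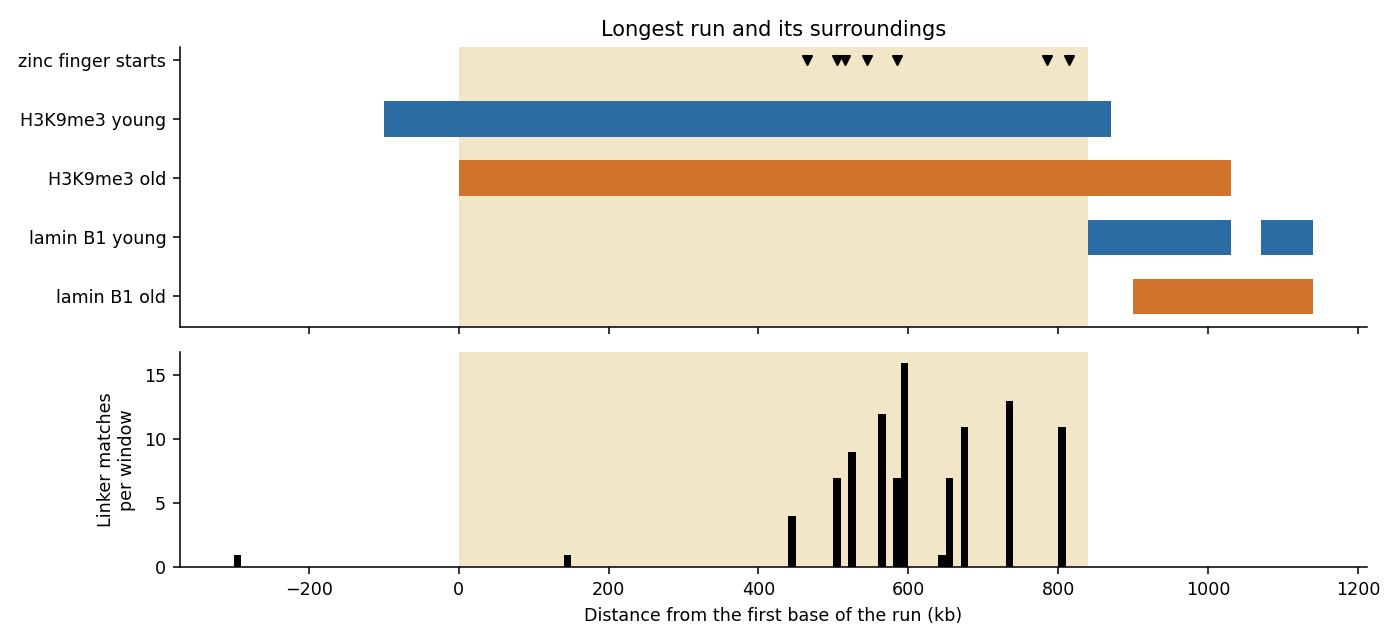
Tracks around the longest run, with the distance from its first base in kb on the x axis and the run shaded from 0 to 840 kb. Bars mark 10 kb windows in each list, triangles mark windows with a start site of a C2H2 zinc finger gene, and the lower panel counts linker matches per window, which stand in the right part of the run.

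The next 9 runs, 510 to 600 kb long, were not of this kind: each held 0 or 1 linker match. The run of 600 kb (chr13:102940001-103540000) held the start site of Mast4, a microtubule-associated serine/threonine kinase. The run of 570 kb (chr14:119460001-120030000) had no protein-coding start site and lay partly in the body of Hs6st3, a heparan sulfate sulfotransferase. A pair of runs of 560 kb followed on chromosome 1, with Mfsd9 and Tmem182 in one and no protein-coding start site in the other. The run of 550 kb (chr15:91280001-91830000) held Slc2a13, a myo-inositol transporter, and Lrrk2, a kinase mutated in familial Parkinson disease. Its young and old regions, 550 and 570 kb long, nearly coincided. The remaining long runs held no protein-coding start site (540 kb, chromosome 1), Prkacb, a catalytic subunit of protein kinase A, and Ttll7, a tubulin polyglutamylase (530 kb, chromosome 3), Lrrtm3, a synaptic adhesion protein (520 kb, chromosome 10), and Nav3, a neuron navigator protein (510 kb, chromosome 10).

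Across all members, linker matches were dense. Members held 1295 matches, 15.4 per Mb, against 2.90 per Mb over all windows, 8.92 where H3K9me3 and lamin B1 were both present at both ages, 1.31 and 1.95 where H3K9me3 was outside lamin B1 and found in young or in old livers alone, and 3.42 in windows of none of the 4 lists. Of all matches on chromosomes 1 to 19, 18.7% fell in members. The matches were uneven. Windows with at least 1 match were 2.70% of members (2.38 to 3.07) and 1.13% of all windows (1.09 to 1.17). A group of 59 runs with at least 5 matches each, set apart after the densities were seen, held 93.6% of the matches in 8.06% of the member windows. The other 730 runs held 1.07 matches per Mb. Members had more matches per Mb than the rest of their chromosome on 14 of 19 chromosomes and fewer on 5.

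Where windows with at least 3 linker matches were marked, it was rarely at 1 age alone. The cut of 3 matches was not planned in advance. Outside lamin B1, 151 windows with at least 3 matches were marked in young livers and 151 in old livers, and 138 of them were marked at both ages (91.4%, 85.8 to 94.9, for either list). With at least 1 match, the shares were lower, 46.5% of the young windows (42.1 to 51.0) and 71.6% of the old windows (66.4 to 76.3). Without a match, 23.9% of the young windows (23.5 to 24.4) and 48.4% of the old windows (47.6 to 49.1) were marked at both ages. The 138 windows lay in 67 runs on 15 chromosomes. Of all 590 windows with at least 3 matches on chromosomes 1 to 19, whatever their lamin B1 state, 255 (43.2%, 39.3 to 47.2) were marked at both ages, 25 (4.24%) in young and 33 (5.59%) in old livers alone, against 9.89%, 13.5% and 15.1% of all windows. A similar number, 243 (41.2%, 37.3 to 45.2), were in none of the 4 lists, against 39.1% of all windows.

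The young and the old H3K9me3 list differed in GC content. Replicates were merged before calling, so whether age, library or read depth set this difference was not tested. Outside lamin B1, the share of windows in the young list fell from 37.3% below 36% GC to 12.7% at 44% GC and over, whereas that of the old list was 1.97% below 36% GC, 26.3% between 42 and 44% and 23.8% at 44% and over. Young-marked windows were accordingly marked in old livers in 3.59% of cases (3.12 to 4.13) below 36% GC and in 68.1% (65.1 to 70.9) at 44% and over. Old-marked windows ran the opposite way, with 68.0% (62.3 to 73.2) below 36% and 36.3% (34.1 to 38.5) at 44% and over also in the young list. Members averaged 40.7% GC ± 2.41 (SD between windows, n = 8404), between windows marked in young livers alone (38.1% ± 2.37, n = 26235) and in old livers alone (41.5% ± 2.36, n = 8811). The first difference was slightly larger than the spread between windows and the second smaller. The part of GC content in the age lists was not tested. Outside lamin B1, the young-marked windows with at least 3 linker matches averaged 39.0% GC ± 2.04 (n = 151), and of the 114 below 40% GC, 102 were also marked in old livers.

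**Figure D3:**
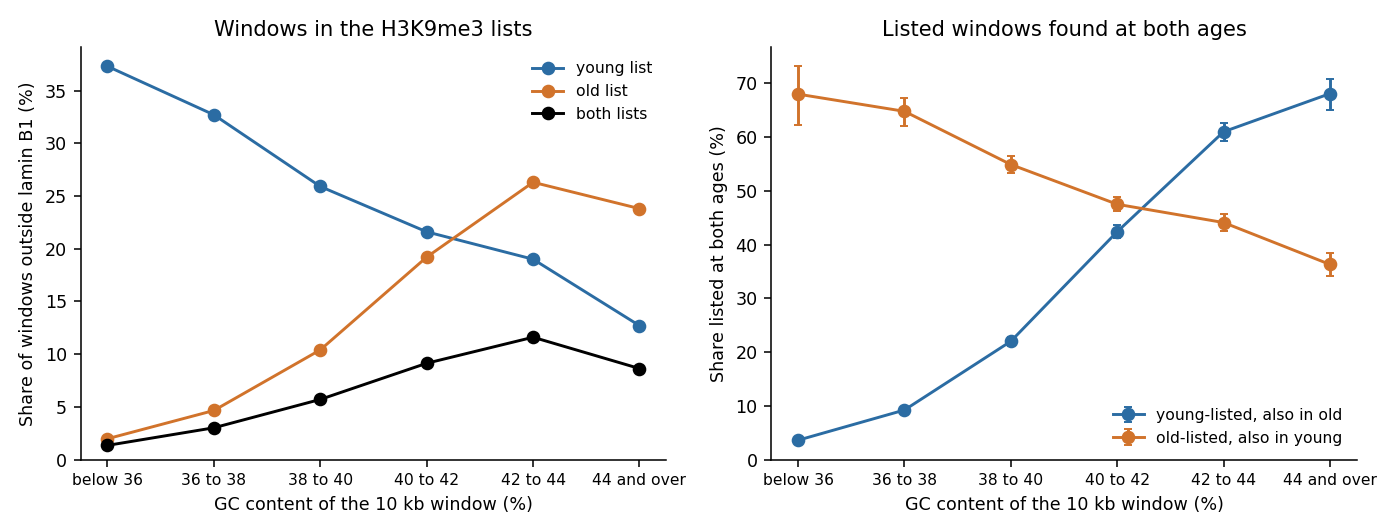
The x axis groups 10 kb windows outside lamin B1 by GC content in percent. The left panel gives the share of windows in the young list, the old list and both, and the right panel the share of windows of 1 list that were also in the other, with 95% Wilson intervals; the young curve climbs from 3.59% to 68.1% and the old curve falls from 68.0% to 36.3%.

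Members lay closer to lamin B1 than did windows marked in young livers alone. The median distance to the nearest lamin B1 domain of either age was 220 kb (quartiles 80 and 540 kb) for members, 520 kb for windows marked in young livers alone, 220 kb for those marked in old livers alone and 410 kb for windows in no list. Within 50 kb of a domain lay 17.0% of members, 7.88% of windows marked in young livers alone, 17.1% of those marked in old livers alone and 10.6% of windows in no list. Repeats and low-complexity sequence, shown in lower case in the reference assembly, made up 34.7% of a member window ± 17.8 (SD, n = 8404) and 33.5% ± 17.6 over all windows, which differed by far less than the spread between windows. In windows with both marks at both ages the share was 28.5% ± 11.8 and the GC content 45.1% ± 3.11 (n = 4674). CpG dinucleotides numbered 7.42 per kb in members, 8.51 over all windows and 12.4 where both marks were present.

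Few genes began in members. Protein-coding start sites were found in 326 of the windows (3.88%, 3.49 to 4.31), against 7.55% (7.45 to 7.65) of all windows, 4.69% (4.55 to 4.82) of windows in none of the lists and 9.99% (9.16 to 10.9) of windows with both marks at both ages. Windows marked at 1 age outside lamin B1 had fewer, with 2.65% (2.47 to 2.85) in young and 3.21% (2.86 to 3.60) in old livers. These shares count windows without known bases, which lower the share in none of the lists. The 96385 windows in none of the lists held 897 Mb of known bases, with 5.38 protein-coding start sites per Mb. The density was 4.23 start sites per Mb in members and 8.68 over all windows, and it was below that of the rest of the chromosome on 18 of 19 chromosomes. The exception was chromosome 18, with 15 in members and 5.58 elsewhere, which holds the clustered protocadherins. Of the runs, 602 (76.3%) held no protein-coding start site and 313 no start site of any gene. Pseudogenes numbered 5.38 per Mb in members and 4.84 over all windows, and long noncoding RNA genes 2.74 and 3.93.

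**Figure D4:**
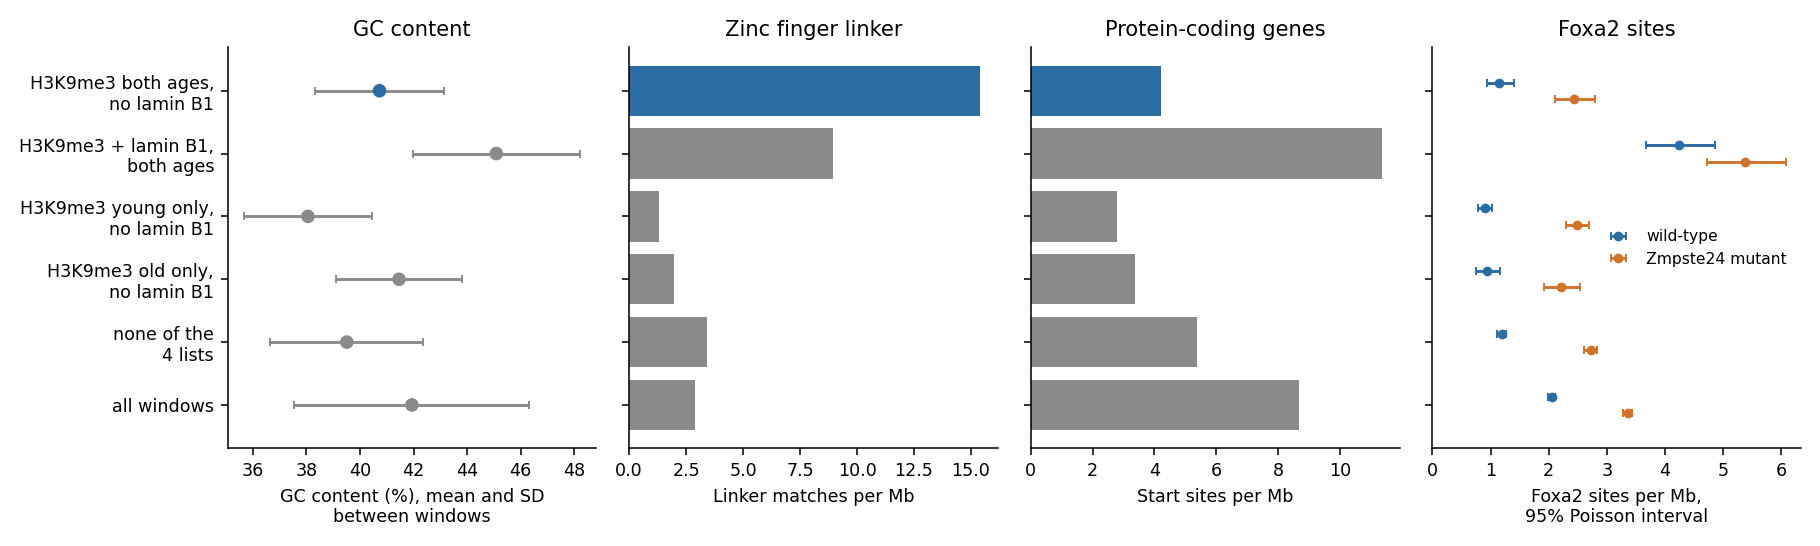
Members (blue, top) and 5 other sets of windows, with GC content as mean and SD between windows, linker matches per Mb, protein-coding start sites per Mb, and Foxa2 sites per Mb with 95% Poisson intervals for wild-type and Zmpste24 mutant livers. Members have 15.4 linker matches per Mb against 2.90 over all windows, and their Foxa2 intervals overlap those of windows in none of the 4 lists.

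A total of 355 protein-coding genes had their start site in a member, or 1.71% (1.54 to 1.89) of 20807, and 242 of them lay wholly in members. Of the 355, 157 (44.2%) came from 4 families that stand in tandem clusters. These were 75 of 620 C2H2 zinc finger genes (12.1%) and 34 of 57 clustered protocadherins (59.6%). The others were 31 of 1128 olfactory receptors (2.75%) and 17 of 329 vomeronasal receptors (5.17%). Each of these shares stands against 1.71% of all protein-coding genes. Not all gene groups stood apart in this way. Cytochrome P450 genes (2.00%) and serpins (1.67%) were near the share of all genes, and solute carriers (0.279%) were below it. Genes of a cluster share a called region, so the counts are not independent.

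The C2H2 zinc finger genes were 75 of 620 (12.1%, 9.76 to 14.9), in 40 runs on 11 chromosomes, with 17 on chromosome 13 and 12 each on chromosomes 7 and 17. The median number of fingers was 13 in these genes and 9 in the whole family, and 58 of the 75 had at least 10. Those with most fingers were Zfp619 with 33, Zfp729b with 30 and Zfp729a with 27. Zfp729b and Zfp729a share a run of 130 kb on chromosome 13 (chr13:67590001-67720000) with Zfp738 and Gm49345, with 40 linker matches. Nearby, Rsl1, a regulator of sex-limited liver genes, stood with Zfp455, Zfp458, Zfp457 and Zfp595 in a run of 190 kb (chr13:67150001-67340000). On chromosome 5 the run of 280 kb with 5430403G16Rik, 4930522L14Rik and Gm15446 held 68 matches, and its H3K9me3 regions measured 300 kb (young) and 280 kb (old). Of those wholly inside members, 65 in all, the longest were A630089N07Rik (81.1 kb), Gm4924 (68.6 kb), Zfp951 (46.9 kb), Gm49345 (45.6 kb), Zfp442 (44.3 kb), D130040H23Rik (43.1 kb), 2610008E11Rik (33.2 kb), Zfp976 (33.1 kb), Zfp975 (32.6 kb) and Zfp995 (30.4 kb). Near-identical copies in these clusters can share reads that do not align uniquely, and such reads were discarded before calling.

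Zinc finger genes were not confined to chromatin free of lamin B1. Of the 620, 207 (33.4%, 29.8 to 37.2) began in H3K9me3 at both ages, against 7.45% (7.11 to 7.82) of all protein-coding genes. Besides the 75, 57 of these were in lamin B1 at both ages, 53 in old livers alone and 22 in young livers alone. A further 81 genes (13.1%, 10.6 to 15.9) were marked in old and 23 (3.71%, 2.48 to 5.50) in young livers alone, against 18.2% and 6.19% of all protein-coding genes. Of the rest, 168 (27.1%) had lamin B1 without H3K9me3 and 141 (22.7%) were in none of the 4 lists, against 45.0% and 23.2% of all protein-coding genes. Among the 75, 26 lay within 50 kb of a lamin B1 domain.

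The clustered protocadherins, adhesion molecules of neurons chosen from tandem promoters, had 34 of 57 start sites in members (59.6%, 46.7 to 71.4), all in 3 runs of 1 locus on chromosome 18. A further 21 lay in windows with H3K9me3 and lamin B1 at both ages. The members were 12 gene models of the alpha cluster and 22 of the beta cluster, from Pcdhb1 to Pcdhb22, and 22 lay wholly in members, the longest of them Pcdhb14 (8.70 kb), Pcdhb19 (7.14 kb), Pcdhb22 (6.61 kb), Pcdhb16 (5.22 kb) and Pcdhb18 (5.04 kb).

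Most receptors of smell began in none of the 4 lists. Olfactory receptors, which detect odours in the nose, had 31 of 1128 start sites in members (2.75%, 1.94 to 3.87) in 15 runs. Among them were Olfr373, Olfr365, Olfr27, Olfr362 and Olfr24. Windows marked in young livers alone held 234 (20.7%) and windows in none of the 4 lists 733 (65.0%), against 3.53% and 23.2% of all protein-coding genes. Of the vomeronasal receptors, which detect pheromones, 17 of 329 (5.17%, 3.25 to 8.12) began in members, in 7 runs, and 266 (80.9%) in none of the 4 lists. The longest wholly inside were Vmn2r57 (52.8 kb), Vmn1r74 (19.3 kb), Vmn1r43 (17.5 kb) and Vmn1r76 (14.7 kb).

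**Figure D5:**
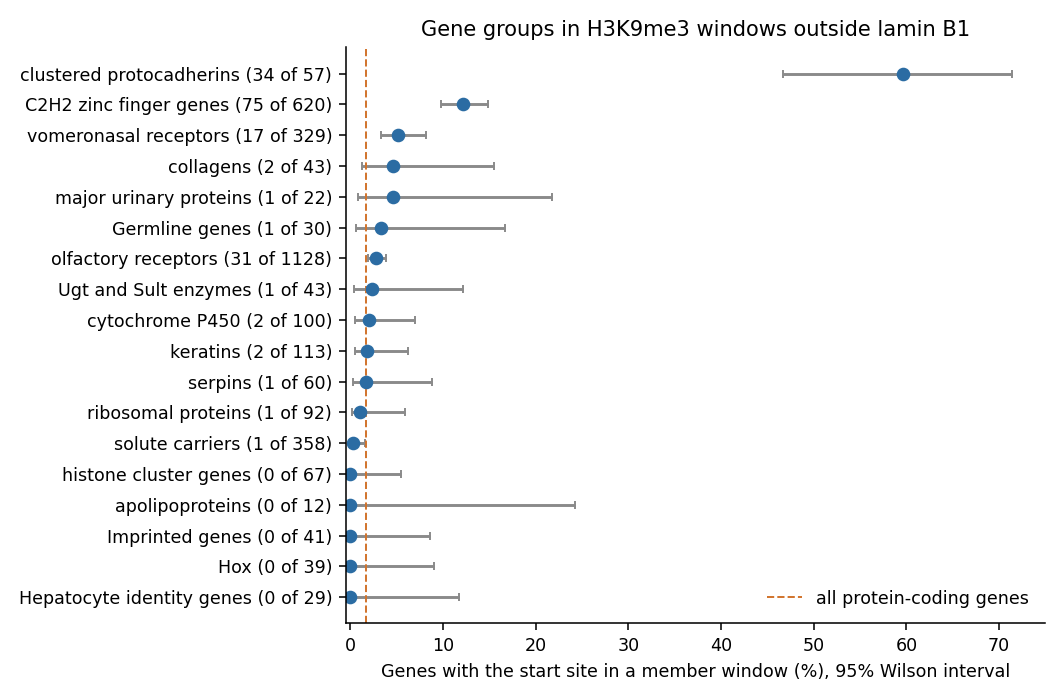
Share of each gene group with its start site in a member window, in percent, with 95% Wilson intervals; counts stand beside the names, and the dashed line marks all protein-coding genes (1.71%). Clustered protocadherins (59.6%) and C2H2 zinc finger genes (12.1%) stand farthest to the right, and apolipoproteins, histone cluster genes, Hox, imprinted and hepatocyte identity genes are at 0.

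For each group of liver genes the interval included the share of all protein-coding genes (1.71%). The groups were too small to tell a lower or a higher share. None of 29 hepatocyte identity genes (0 to 11.7%), such as Alb, Ttr and Hnf4a, and none of 12 apolipoproteins (0 to 24.2%) began in a member, and both intervals include the share of all genes. Of 100 cytochrome P450 genes, 2 did (2.00%, 0.550 to 7), Cyp2c37 and Cyp4f37. Single genes came from the serpins (Serpinb6e, 1 of 60), the Ugt and Sult conjugating enzymes (Sult2a4, 1 of 43) and the major urinary proteins (Mup21, 1 of 22). The solute carriers, a broad family and not a liver group as such, had Slc2a13 alone. This was 1 of 358 (0.279%, 0.0493 to 1.57), an interval just below the share of all genes. Groups of no special relation to liver had 2 of 113 keratin genes (Krtap7-1 and Krtap8-1), 2 of 43 collagens (Col24a1 and Col28a1), 1 of 92 ribosomal protein genes (Rpl39l) and 0 of 67 histone cluster genes.

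None of 39 Hox genes (0 to 8.97%) and none of 41 imprinted genes (0 to 8.57%) began in a member, and both intervals include the 1.71% of all protein-coding genes. In windows with both marks at both ages stood 18 Hox genes (46.2%) and 5 imprinted genes (12.2%), against 2.55% of all protein-coding genes. These were Peg3, Zim1, Zim2, Usp29 and Zdbf2. The body of Kcnq1ot1, the antisense RNA that silences its neighbours, lay in members for 50% of its windows. Of 30 germline genes, 1 began in a member, Zfp42 (Rex1, a marker of pluripotent cells), which lay wholly inside. Of the genes at the centre of the study, none began in a member. Pparg stood in lamin B1 of young livers, Lmna in lamin B1 at both ages and Lmnb1 in lamin B1 of old livers, each without H3K9me3, and Zmpste24 and Foxa2 began in none of the 4 lists.

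A protein-coding gene, body included, was touched by 2693 windows (32.0%), against 45.8% of all windows and 35.2% of windows in none of the lists. Windows without known bases were counted in these shares too. In all, 548 genes touched a member and 193 of them began outside. The genes with most member windows, named after their values were seen, were long ones. Ctnna3, an alpha-catenin, had 850 kb in members and began outside them. Hs6st3 had 600 kb and Mast4 500 kb, or 81.1% and 82.0% of their windows. Mapk10, a stress-activated kinase of neurons, had 96.9% of its windows in members, and Grin2b, a subunit of the NMDA receptor, had 83.0%.

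Foxa2 sites were placed by their midpoint. In wild-type livers 97 sites lay in members, 1.15 per Mb (0.936 to 1.41), and in Zmpste24 mutants 205 sites, 2.44 per Mb (2.12 to 2.80). Over all windows the densities were 2.05 (1.99 to 2.11) and 3.36 (3.29 to 3.43), and in windows of none of the 4 lists 1.19 (1.12 to 1.26) and 2.72 (2.61 to 2.83). Outside lamin B1, windows marked in young livers alone had 0.903 (0.792 to 1.03) and 2.49 (2.31 to 2.69), and those marked in old livers alone 0.942 (0.751 to 1.17) and 2.21 (1.91 to 2.55). Of member windows 1.13% held a wild-type site and 2.43% a mutant site, against 1.91% and 3.16% of all windows. The intervals of members overlapped those of all 3 of these sets outside lamin B1, and lay below those of windows with both marks at both ages (4.24, 3.67 to 4.87, and 5.37, 4.73 to 6.08). The members' density was below that of the rest of the chromosome on 18 of 19 chromosomes in wild-type and on 16 in mutant livers.

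Mutant sites outnumbered wild-type sites 2.11 to 1 in members. They were 67.9% of the sites of both lists there (62.4 to 72.9), 62.1% (61.3 to 62.9) over all windows, 69.6% (68.0 to 71.1) in none of the lists, 73.4% (70.4 to 76.2) and 70.1% (64.5 to 75.2) where H3K9me3 was outside lamin B1 in young or in old livers alone, and 55.9% (51.3 to 60.4) with both marks at both ages. In the 59 linker-rich runs each genotype had 11 sites (1.63 per Mb, 0.811 to 2.91), and in the other runs 86 wild-type (1.11 per Mb, 0.890 to 1.38) and 194 mutant sites (2.51 per Mb, 2.17 to 2.89). A single linker-rich run (chr16:97950001-98100000) held 3 of the 11 wild-type and 2 of the 11 mutant sites. Its wild-type sites spanned 4175, 6827 and 3683 bases, against a median of 940 over all wild-type sites. Wild-type sites of 3075, 2451 and 5181 bases stood in another such run, of 90 kb on chromosome 8. Most runs, 580 of 789, held no site. Most of the sites lay between genes, with 63 of 97 wild-type (64.9%) and 158 of 205 mutant sites (77.1%) intergenic. Member windows are themselves poor in genes, as 32.0% of them touched a protein-coding gene, and the intergenic share over all sites is not given here. The median distance to a protein-coding start site was 97 and 141 kb, against 26.0 and 46.2 kb over all sites. These mice were 12 weeks old, and the H3K9me3 lists come from other animals.

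Sites called in both genotypes were 14 of the 97 wild-type sites (14.4%, 8.80 to 22.8), against 27.3% (26.0 to 28.5) over all windows, and 15 of the 205 mutant sites (7.32%, 4.48 to 11.7), against 16.8% (16.0 to 17.6). Windows in none of the lists had 25.1% (22.6 to 27.8) and 11% (9.84 to 12.3). Windows with H3K9me3 at 1 age outside lamin B1 were like members. Those marked in young livers alone had 15.2% (11.2 to 20.3) and 5.50% (4 to 7.53). Those marked in old livers alone had 13.3% (7.56 to 22.2) and 5.13% (2.81 to 9.18). Windows with both marks at both ages had more shared sites, with 36.4% (30 to 43.3) and 29.5% (24.2 to 35.4). Their intervals lay above those over all windows, so few shared sites were not a feature of all windows with H3K9me3. The forkhead core TGTTTAC was found, on either strand, in 23.7% (16.4 to 33.1) of wild-type sites in members and 27.8% (26.6 to 29.1) of all wild-type sites. For mutant sites the shares were 15.6% (11.3 to 21.2) and 23.4% (22.4 to 24.3). Among mutant sites called in that genotype alone they were 15.3% (10.8 to 21.1) and 19.5% (18.5 to 20.4), so that the intervals overlapped. In the windows themselves the core stood at 166.5 per Mb in members and 157 over all windows, with at least 1 copy in 79.7% and 77.4% of windows, and the GATA core AGATAA at 791 and 740 per Mb.

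Start sites nearest to shared sites were, in genome order, those of Sulf1, Acadl, Slc4a3, Tnfsf4, Rsrc1, Pdp1, Fezf1, 2610044O15Rik8 and Epm2a. The wild-type site at Fezf1, a zinc finger factor of the developing forebrain, had its midpoint 0.006 kb from the start. Acadl, a mitochondrial acyl-CoA dehydrogenase, was 37.7 kb from its site. Of the 14 shared wild-type sites 4 held the forkhead core, and they are printed 5′ to 3′ (GRCm38, plus strand) with the core in capitals, named by the nearest gene.

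Slc4a3: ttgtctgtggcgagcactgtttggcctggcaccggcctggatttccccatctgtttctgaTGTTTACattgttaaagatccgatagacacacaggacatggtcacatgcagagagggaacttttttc
2610044O15Rik8: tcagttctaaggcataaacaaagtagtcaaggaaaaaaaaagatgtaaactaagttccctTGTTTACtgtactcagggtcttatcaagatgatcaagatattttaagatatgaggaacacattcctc
Fam172a: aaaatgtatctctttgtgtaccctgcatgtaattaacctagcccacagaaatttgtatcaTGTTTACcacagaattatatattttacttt
Cyp2c37: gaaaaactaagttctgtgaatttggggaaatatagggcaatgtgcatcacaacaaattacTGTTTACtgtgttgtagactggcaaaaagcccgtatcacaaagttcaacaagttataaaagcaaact

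The first, chr1:75693279-75693405, lies between genes and 147 kb from the start of Slc4a3, in a run of 560 kb. The stretch chr8:129265677-129265803 is intergenic, 33.5 kb from a zinc finger gene, and its core lies outside the mutant site, which began at 129265942. The stretch chr13:77439117-77439206 lies in an intron of 2210408I21Rik, in sites of nearly the same extent in wild-type (77438815 to 77439206) and mutant livers (77438804 to 77439213). The last, chr19:39989528-39989654, lies 2.73 kb from the start of Cyp2c37, a cytochrome P450 of the liver, in a run of 120 kb, and is the one of the 4 within 5 kb of a protein-coding start site.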

How the data were processed

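Per the methods and labels, BWA alignment to mm10 was followed by removal of duplicates (Picard) and of reads without a unique position, and replicates were pooled. Epic called the lamin B1 domains (10 kb windows, gaps of up to 3), and PeakSeq called the Foxa2 sites against input after the mutant reads were thinned to the wild-type number. The caller of the H3K9me3 regions is not given in the methods; the submitters' processing notes name SICER. The deposited lists of lamin B1, H3K9me3 and Foxa2 regions hold genome positions and no signal. Neighbouring regions stand at least 40 kb apart in each domain list, and the shortest regions span 20 to 30 kb, so runs are made coarse by the calling. Depth is unknown from the lists. The study lists more H3K9me3 reads for old than for young livers, and more lamin B1 reads for young than for old. The effect of depth on the lists was not tested. H3K9me2 was not analysed here.

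Domain ends are the last base of a window, positions are counted from 1, and a start site or Foxa2 midpoint was placed in the window that holds it. Shares of windows by list, gene or Foxa2 site include windows without known bases, whereas densities per Mb leave unknown bases out. Genes came from GENCODE vM21 and sequence from GRCm38.p6 (RefSeq, soft-masked). C2H2 genes were those with a family symbol (Zfp, Zscan, Zkscan, Zik or Zim with a number) or at least 3 fingers in the translation of a GENCODE coding transcript. Genes were named by rule: those starting in the 10 longest runs, members of the imprinted, germline and hepatocyte lists, up to 10 genes of each other group lying wholly in members, longest first, the genes of the study's own interest, and those nearest to the first 10 Foxa2 sites called in both genotypes, of which 1 gene is not reported here. The members and lists were chosen with earlier results of these data known. Shares, densities and intervals were computed with Python 3.11.15, numpy 2.4.6, pandas 2.3.3, scipy 1.17.1 and matplotlib 3.10.9. No test was run, since the lists hold no replicates. The window and run code was tested on simulated data. Alternatives were a margin to lamin B1, a least run and region length, another overlap rule, windows without gaps, chromosome X, the chromosome with most members left out, joined runs, and, added after seeing the data, runs rich in linkers left out.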

Additional observations from a re-analysis of the deposited data

How the results depend on the processing

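No paired analysis was possible because the replicates were merged before regions were called, and for the same reason no replicate could be left out. Of 49 values recomputed under other settings, 45 stayed within 1.5 times the reported count, within its 95% interval or within 1 SD between windows. With members at least 50 kb from lamin B1 alone, C2H2 zinc finger genes fell from 75 to 49. When any overlap with a gene body placed a gene in a window, the share of windows with a protein-coding gene was 32.0% in place of 3.88%, because bodies and not start sites were then counted. Leaving out the 59 runs with at least 5 linker matches, chosen after seeing the data, left 8 zinc finger genes and start sites in 3.04% of windows. Runs of at least 2 windows, regions of at least 50 kb, windows without unknown bases and leaving out chromosome 1 moved none of the values they were applied to beyond those margins. The lists carry no scores, so no stricter threshold could be set.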

Other observations

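Chromosome X held no member. Of its 17104 windows, 8 were in the young and 9 in the old H3K9me3 list, and 9 were in a lamin B1 list of either age, against 23.4% and 25% of the windows of chromosomes 1 to 19 in the H3K9me3 lists. The cause was not tested.

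Among 2054 genes annotated as miRNAs, 46 (2.24%, Wilson interval 1.68 to 2.97) began in members. The share was 1.71% for protein-coding genes and 2.44% for long noncoding RNA genes, and 3.41% of all windows were members. The miRNA interval included both of these gene shares and lay below the share of windows, so miRNA genes did not stand out. Among the 46 is Mir9-2, a copy of the neuronal miRNA miR-9, on chromosome 13 from 83738814 to 83738885. It was named after its position was seen.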
